A study of Homo sapiens with 8 samples.

Results

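The chromogranins, the secretogranins and the enzymes that cut peptide prohormones were followed as 1 group of 10 human genes in neuroblastoma (NB) cells exposed to media conditioned by embryonic ganglia. The members were named for their roles, by a rule that uses no measured value, though with earlier results of these data known: the granins CHGA, CHGB, SCG2, SCG3 and SCG5, the granin-like prohormone VGF, the prohormone convertases PCSK1 and PCSK2, the convertase inhibitor PCSK1N and carboxypeptidase E (CPE). They are 10 of the 60676 gene identifiers in the count table. Of the 10 genes, 8 had a count in at least 1 library and 7 passed the filter on low counts and were tested. CHGA and SCG5 were listed at 0 in all 8 libraries, and PCSK2 had too few counts for the test.

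The cells were IGR-N91, a human NB cell line derived from a stage 4 tumor, grown as aggregates in hanging drops, with 2 libraries in each of 4 groups. The groups differ in the medium, in which the aggregates were kept for 20 h by the labels of the libraries and 24 h by the design text of the series. They were exposed to control medium, to medium conditioned by sympathetic ganglia of E8 chick embryos (E8-cSGcm), to medium conditioned by dorsal root ganglia of E8 chick embryos (E8-cDRGcm), or to medium conditioned by sympathetic ganglia of E15.5 mouse embryos (E15.5-mSGcm), where E is the embryonic day. No label states that the 2 libraries of a group came from separate cultures, so the p-values measure the spread between libraries, which may be technical. All data come from 1 cell line. The mouse medium differs from the E8-cSGcm in species as well as in stage, which cannot be told apart. The column names of the counts mark the control libraries as E8, and no control is marked E15.5. Whether this bears on the comparisons of E15.5-mSGcm with control medium was not tested.

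Neuroendocrine cells such as sympathetic neurons, chromaffin cells and the NB cells that resemble them store peptides in dense-core granules. Granins are acidic, aggregating proteins that condense in the trans-Golgi network, help the granule to form and are themselves cut into peptides. Convertases of the PCSK family cut prohormones after pairs of basic residues, and CPE then trims those residues from the end of the new peptide. Small binding proteins keep the convertases in check or help them to mature: the PCSK1N product inhibits the PCSK1 enzyme and the SCG5 product is a chaperone and inhibitor of the PCSK2 enzyme.

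The deposited values are counts of reads per gene. Total counts per library were between 7930765 and 15060744, with the lowest totals in E15.5-mSGcm. Levels are given as CPM, the count scaled to a common library size, with library sizes scaled by the TMM method, and levels of different genes are compared only per kilobase of exon. A gene was called upregulated or downregulated at an adjusted p under 0.05 in edgeR's quasi-likelihood test with a fold change of at least 1.5, the threshold of the study. The noradrenergic identity of the cells showed in its markers: 8 of 8 were detected and none was at 0. Their summed level, of which MYCN held most, was 5943 to 6031 CPM in control medium, 4405 to 4678 in E8-cSGcm, 3536 to 3640 in E8-cDRGcm and 3566 to 3734 in E15.5-mSGcm, so it was lower in every conditioned medium. The sum does not stand for each marker. HAND2 had 9689 and 10809 counts in control medium and 10006 and 9750 in E8-cDRGcm, at similar library totals. DBH rose relative to library totals in E15.5-mSGcm, with 378 and 483 counts there against 495 and 565 in control medium. Whether the lower sum has a part in the results for the granins was not tested. In bulk RNA, fewer cells that express a gene and less of its RNA per cell cannot be told apart. The summed CPM of Schwann cell markers stayed at or under 1.04 (3 of 6 at 0, with SOX10 among them), of endothelial markers at or under 1.61 (1 of the 3 in the table at 0, CDH5), and of leukocyte markers at or under 0.197 (2 of 4 at 0). The 7 fibroblast markers, none of which was at 0, summed to 417 to 428 CPM in control medium and 477 to 487 CPM in E15.5-mSGcm, with the values of both chick media between these. Single fibroblast markers moved in both directions under this sum. In E15.5-mSGcm COL1A1 had 249 and 249 counts against 1296 and 1716 in control medium. There DCN had 107 and 118 counts against 36 and 42, and PDGFRA 67 and 97 against 14 and 8.

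Promoter sequences are shown for 3 members whose level changed against control medium and for CHGA, whose level could not be read. The 250 bases before the start site were taken from a set of RefSeq promoter windows on GRCh38.p14. The set used here lists a start site for 8 of the 10 members. It holds no window for CHGB and SCG2, although RefSeq holds both genes. These windows were searched on both strands for the full cAMP response element TGACGTCA, its TGACG part, TATAAA and the E-box CANNTG. The cAMP response element is the site that CREB, CREM and ATF1 bind. In the lines that follow, capitals mark TGACG and, where it is complete, TGACGTCA, and each sequence runs 5′ to 3′ along the gene's strand.
VGF, chr7:101165570-101165819, minus strand: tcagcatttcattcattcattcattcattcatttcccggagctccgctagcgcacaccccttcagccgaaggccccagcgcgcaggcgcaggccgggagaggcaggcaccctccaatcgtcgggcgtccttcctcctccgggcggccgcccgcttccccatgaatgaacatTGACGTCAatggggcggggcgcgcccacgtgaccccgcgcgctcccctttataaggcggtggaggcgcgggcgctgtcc
PCSK1, first start site, chr5:96433249-96433498, minus strand: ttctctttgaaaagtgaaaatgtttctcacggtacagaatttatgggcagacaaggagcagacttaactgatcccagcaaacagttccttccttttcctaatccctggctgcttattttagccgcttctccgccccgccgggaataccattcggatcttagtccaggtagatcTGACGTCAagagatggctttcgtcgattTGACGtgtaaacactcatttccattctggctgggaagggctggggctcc
CPE, chr4:165378758-165379007, plus strand: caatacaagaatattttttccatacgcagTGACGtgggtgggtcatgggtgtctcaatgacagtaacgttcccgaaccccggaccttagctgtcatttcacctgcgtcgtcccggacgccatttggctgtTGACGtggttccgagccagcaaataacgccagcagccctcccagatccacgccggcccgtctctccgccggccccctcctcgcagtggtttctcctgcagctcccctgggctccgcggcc
CHGA, chr14:92922900-92923149, plus strand: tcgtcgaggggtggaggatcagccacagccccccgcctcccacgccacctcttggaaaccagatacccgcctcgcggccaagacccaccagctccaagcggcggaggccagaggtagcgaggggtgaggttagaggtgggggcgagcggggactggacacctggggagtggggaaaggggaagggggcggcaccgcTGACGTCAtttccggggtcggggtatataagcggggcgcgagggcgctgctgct
The full element TGACGTCA was in the windows of VGF, the first PCSK1 start site and CHGA, with its first base at -79, -77 and -54 from the start site, and it was in 1.65% of 35116 human promoter windows of this length. Because TGACGTCA is its own reverse complement, each full match also holds TGACG on both strands. The CPE window held TGACG at -221 and -120 and no full element, the PCSK1 window held another TGACG at -49, and 21.2% of all windows held TGACG or its reverse complement. The VGF window held TATAAA only on the strand opposite to the gene, as TTTATA from -32, and 10.7% of all windows held TATAAA on either strand. An E-box was in 61.8% of all windows, among them those of VGF, CPE and CHGA. The windows of SCG3, PCSK1N and the second PCSK1 start site held no TGACG on either strand, and the last held TATAAA at -28 and an E-box at -167. The SCG5 window held TGACG at -17, and the PCSK2 windows held its reverse complement at -157 and -96. The windows of VGF and CHGA lie within the gene intervals given below, so the start sites used for them are inside the annotated genes. A match of letters is a description of the window and not evidence that a factor binds there.

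Among the granins and granin-like prohormones, VGF changed most. VGF encodes a secreted precursor of several neuropeptides and is known as a gene that nerve growth factor induces. Its gene lies on chromosome 7, from 101162509 to 101169952. VGF stood at 812 and 827 CPM in control medium, at 1665 and 1563 CPM in E8-cSGcm, at 5664 and 6262 CPM in E8-cDRGcm and at 905 and 889 CPM in E15.5-mSGcm. The libraries of the 4 groups did not overlap, and all 6 libraries of conditioned media lay above both controls. VGF was upregulated 1.97-fold in E8-cSGcm (log2 fold change 0.98, SE 0.0512, adjusted p = 1.21e-17) and 7.28-fold in E8-cDRGcm (2.86, SE 0.0539, adjusted p = 8.09e-32). In E15.5-mSGcm its rise was 1.09-fold (0.13, SE 0.0514, adjusted p = 0.0433), which passed the p threshold but not the fold change, and the adjusted p ran from 0.00379 to 0.364 over the alternative settings. The chick media also differed from each other, with VGF 3.69-fold higher in E8-cDRGcm than in E8-cSGcm (log2 difference 1.89, SE 0.0518, adjusted p = 5.82e-26). By count, VGF ranked 78 and 79 among all genes in the control libraries and 4 in both E8-cDRGcm libraries.

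**Figure D1:**
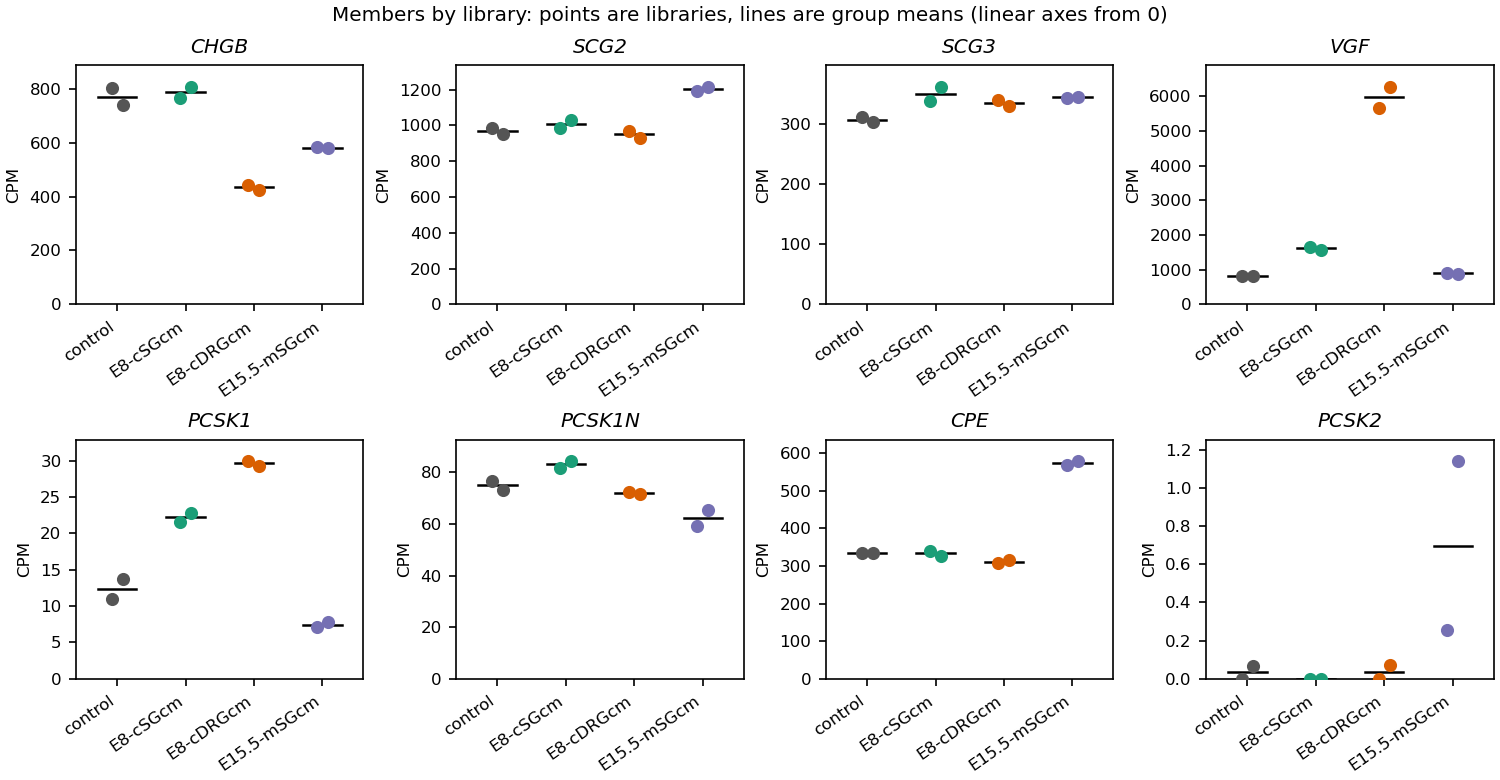
Level of 8 members in CPM (vertical axes, linear, from 0) in the 2 libraries of each of 4 groups (horizontal axes), with points for libraries and lines for group means. VGF reached 5664 and 6262 CPM in E8-cDRGcm against 812 and 827 CPM in control medium, and CPE stood apart in E15.5-mSGcm at 570 and 579 CPM.

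CHGB, the second classical chromogranin, moved the other way in E8-cDRGcm. CHGB lies on chromosome 20, from 5911510 to 5925353. It stood at 802 and 739 CPM in control medium, 767 and 806 CPM in E8-cSGcm, 444 and 423 CPM in E8-cDRGcm and 582 and 581 CPM in E15.5-mSGcm. The control and E8-cSGcm libraries overlapped, and both other media lay below all of these. CHGB was 1.78-fold lower in E8-cDRGcm than in control medium (log2 fold change -0.83, SE 0.0497, adjusted p = 1.16e-16) and was called downregulated. It was 1.32-fold lower in E15.5-mSGcm (-0.41, SE 0.0497, adjusted p = 2.41e-08), under the fold change threshold. In E8-cSGcm the difference was 0.03 on the log2 scale, with a 95% interval from -0.07 to 0.13, and no difference was detected. E8-cDRGcm was 1.81-fold below E8-cSGcm (log2 difference -0.86, SE 0.0497, adjusted p = 4.51e-16). Within a library, the ratio of VGF to CHGB counts was 1.01 and 1.12 in control medium, 2.17 and 1.94 in E8-cSGcm, 12.8 and 14.8 in E8-cDRGcm and 1.55 and 1.53 in E15.5-mSGcm.

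SCG2 and SCG3 moved little. SCG2, also known as chromogranin C and the precursor of secretoneurin, was between 931 and 1029 CPM in the libraries of control medium and both chick media, where each chick medium overlapped the control but not the other. It was at 1195 and 1215 CPM in E15.5-mSGcm, above all 6 of these, a 1.24-fold difference from control medium (log2 fold change 0.32, SE 0.0474, adjusted p = 1.31e-06) that stayed under the fold change threshold. SCG3, a granin that anchors chromogranin A to the granule membrane, was at 312 and 303 CPM in control medium, 339 and 362 CPM in E8-cSGcm, 340 and 330 CPM in E8-cDRGcm and 344 and 346 CPM in E15.5-mSGcm. All 6 libraries of conditioned media therefore lay above both controls, by 1.09-fold to 1.14-fold per medium. The adjusted p of SCG3 was 0.00286 in E8-cSGcm, 0.035 in E8-cDRGcm and 0.00741 in E15.5-mSGcm, and in all 3 media the fold change was under the threshold. Over the alternative settings these 3 adjusted p reached as far as 0.0746, 0.243 and 0.146.

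CHGA, the most used marker of neuroendocrine tumors, and SCG5 could not be read from this count table. CHGA (chromosome 14, from 92922664 to 92935285) was listed at 0 in every library. So were its neighbors: in a run of 28 consecutive protein-coding genes that starts with CHGA and ends with SERPINA4, 26 were at 0 in all 8 libraries and none had more than 3 counts in sum. That run holds ITPK1, UBR7, MOAP1 and DDX24, widely expressed genes, while GOLGA5, the neighbor on the other side, had 6682 counts. SCG5 (chromosome 15, from 32641710 to 32697092) lies in a run of 6 genes, 5 of them at 0, with ARHGAP11A and GREM1 in it and FMN1 at 312 counts just beyond it. The annotated exons of SCG5 overlap those of a readthrough gene on the same strand, which has no entry in the count table. Whether this overlap bears on the zeros of SCG5 was not tested. Such zeros were frequent: 4118 of 19838 protein-coding genes in the table (20.8%) were at 0 in every library, and RPS18, a ribosomal protein gene that every cell uses, lay in another run of 16 genes with 15 at 0. The zeros of CHGA and SCG5 are therefore not read as absence of expression, and what made them was not tested.

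**Figure D2:**
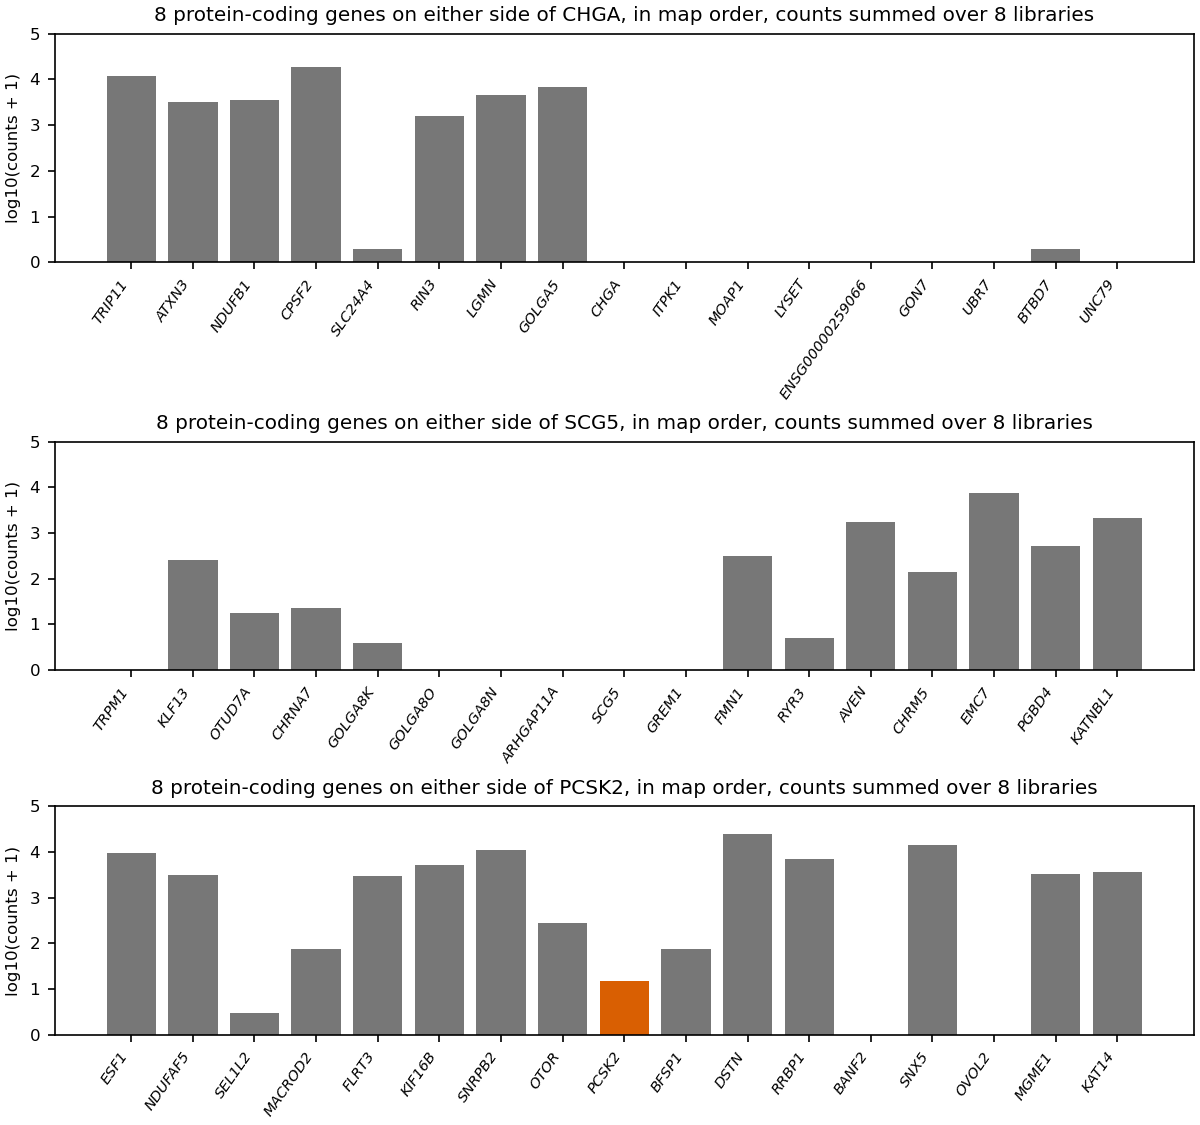
Counts summed over the 8 libraries, as log10 of the counts plus 1 (vertical axes), for CHGA, SCG5 and PCSK2 with the 8 protein-coding genes on either side in map order (horizontal axes). CHGA and the genes after it are at or near 0 after GOLGA5 with 6682 counts, SCG5 sits among zeros, and PCSK2 has 14 counts between neighbors that were measured.

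The convertase PCSK1 rose in both chick media and fell in the mouse medium. PCSK1 (chromosome 5, from 96390333 to 96433248) encodes the convertase that makes the first cuts in many prohormones of neuroendocrine cells, among them pro-opiomelanocortin and proinsulin. Its counts were 143 and 208 in control medium, 270 and 325 in E8-cSGcm, 400 and 400 in E8-cDRGcm, and 55 and 68 in E15.5-mSGcm. In CPM this was 10.9 and 13.7, 21.6 and 22.8, 29.9 and 29.3, and 7.05 and 7.77, and the libraries of the 4 groups did not overlap. PCSK1 was upregulated 1.79-fold in E8-cSGcm (log2 fold change 0.84, SE 0.113, adjusted p = 2.32e-07) and 2.39-fold in E8-cDRGcm (1.26, SE 0.108, adjusted p = 2.45e-12). It was downregulated 1.67-fold in E15.5-mSGcm (-0.74, SE 0.157, adjusted p = 0.000255). That last call rested on control replicate 2: without this library the log2 fold change was -0.57 with an adjusted p of 0.0177, under the fold change threshold. PCSK1 in E15.5-mSGcm was also 2.99-fold below E8-cSGcm (log2 difference -1.58, SE 0.143, adjusted p = 9.53e-12) and 3.98-fold below E8-cDRGcm (-1.99, SE 0.136, adjusted p = 3.08e-15), and neither of these turned on 1 library. Between the chick media the difference was 1.33-fold (0.41, SE 0.0989, adjusted p = 0.00134), under the fold change threshold.

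The inhibitor PCSK1N, which encodes proSAAS, moved less than its target. It stood at 76.8 and 73.2 CPM in control medium, 81.8 and 84.3 CPM in E8-cSGcm, 72.2 and 71.7 CPM in E8-cDRGcm and 59.3 and 65.3 CPM in E15.5-mSGcm. Both E15.5-mSGcm libraries were below all others, by 1.2-fold against control medium (log2 fold change -0.26, SE 0.0693, adjusted p = 0.00254), and no change reached the fold change threshold. The ratio of PCSK1N to PCSK1 counts within a library was 7.01 and 5.34 in control medium, 3.77 and 3.7 in E8-cSGcm, 2.41 and 2.45 in E8-cDRGcm and 8.35 and 8.36 in E15.5-mSGcm. The ratio was thus lower in both chick media and higher in the mouse medium than in either control library, with log2 differences of -0.71, -1.33 and 0.45 between group means. With 2 libraries against 2, the smallest p an exact permutation test can give is 0.333, so these ratios were not tested.

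PCSK2 (chromosome 20, from 17226107 to 17484578), which encodes the convertase that completes the cutting of many prohormones, was close to undetected. It had 0 and 1 counts in control medium, 0 and 0 in E8-cSGcm, 0 and 1 in E8-cDRGcm and 2 and 10 in E15.5-mSGcm. Its neighbors were measured, with 275 counts for OTOR and 24298 for DSTN. A count of 0 in these libraries allows up to 3 counts, which is 0.199 to 0.378 CPM and covers counting error only. When the filter admitted every gene with 1 count, PCSK2 was called upregulated in E15.5-mSGcm against control medium (edgeR adjusted p = 0.013), a call in which 1 library held 10 of the counts. The planned ratio of SCG5 to PCSK2 could not be formed.

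CPE was called upregulated in the mouse medium and in neither chick medium against control. CPE (chromosome 4, from 165379008 to 165498547) encodes the carboxypeptidase that removes the basic residues the convertases leave and is known as a sorting receptor for some prohormones. It was at 336 and 335 CPM in control medium, 341 and 326 CPM in E8-cSGcm, 309 and 315 CPM in E8-cDRGcm and 570 and 579 CPM in E15.5-mSGcm. The chick media and the control lay close together, and E15.5-mSGcm lay far above them. CPE was upregulated 1.71-fold in E15.5-mSGcm against control medium (log2 fold change 0.78, SE 0.0476, adjusted p = 5.11e-16), 1.72-fold against E8-cSGcm (0.78, SE 0.0477, adjusted p = 1.96e-16) and 1.84-fold against E8-cDRGcm (0.88, SE 0.0478, adjusted p = 4.28e-18). Against control medium its difference was -0.01 on the log2 scale in E8-cSGcm, with a 95% interval from -0.10 to 0.09, and -0.10 in E8-cDRGcm, with an interval from -0.20 to -0.01 and an adjusted p of 0.0737. The ratio of CPE to PCSK1 counts ran from 10.3 in an E8-cDRGcm library to 80.2 in an E15.5-mSGcm library.

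**Figure D3:**
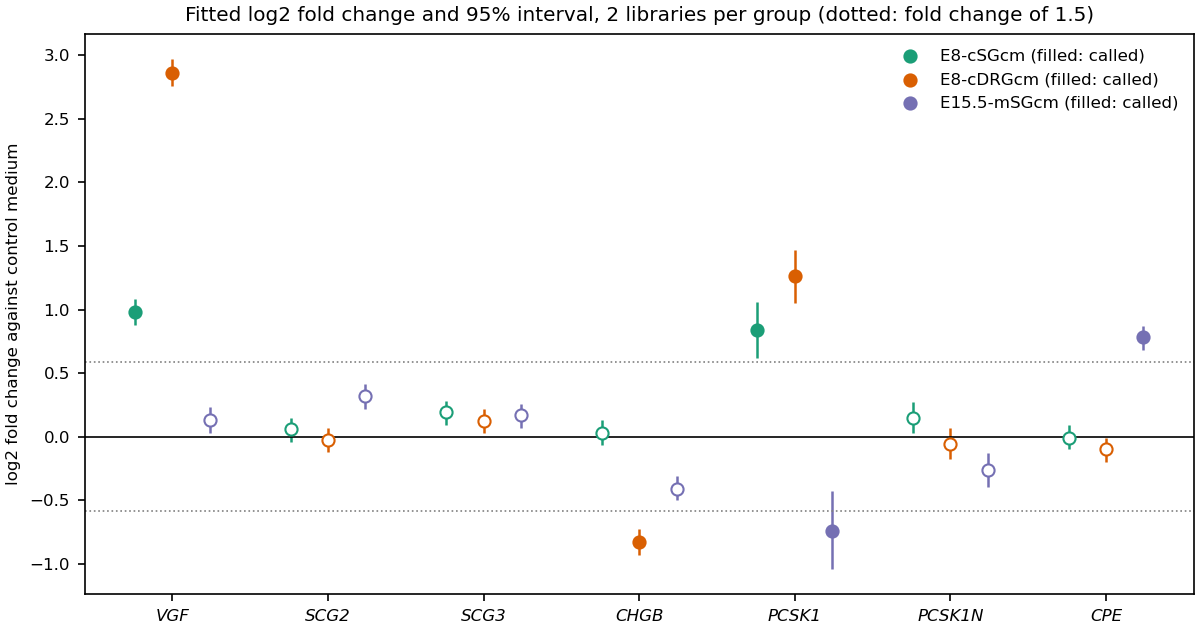
Fitted log2 fold change of the 7 tested members against control medium (vertical axis) with 95% intervals, by gene (horizontal axis) and medium (color), where filled points were called and dotted lines mark a fold change of 1.5. The filled points are VGF and PCSK1 up in both chick media, CHGB down in E8-cDRGcm, and CPE up and PCSK1 down in E15.5-mSGcm.

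Of the 7 tested members, 2 were upregulated and 0 downregulated in E8-cSGcm, where 4.73% of the 16680 tested genes were upregulated and 3.86% downregulated. Downward, 0 members had an unadjusted p under 0.05 in edgeR there and DESeq2 called 0, and the 3 members with an adjusted p under 0.05 in edgeR were VGF, PCSK1 and SCG3. In E8-cDRGcm 2 members were upregulated and 1 downregulated, against 9.81% and 10.9% of all tested genes. In E15.5-mSGcm 1 was upregulated and 1 downregulated, against 6.65% and 7.27% of all tested genes. By the adjusted p alone, 3, 4 and 7 of the 7 members passed in E8-cSGcm, E8-cDRGcm and E15.5-mSGcm, where 31.3%, 49.5% and 37.8% of all tested genes did. The median log2 fold change of the members was 0.15, -0.03 and 0.13, against 0.01, 0.01 and -0.02 over all tested genes. These 3 comparisons share the control libraries.

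Between the conditioned media, 1 member (VGF) was higher and 1 (CHGB) lower in E8-cDRGcm than in E8-cSGcm, where 2.62% and 4.87% of all tested genes were called in these directions. In E15.5-mSGcm against E8-cSGcm, CPE was higher and VGF and PCSK1 were lower, against 10.2% and 12.1% of all tested genes. In E15.5-mSGcm against E8-cDRGcm, the same 3 members were called in the same directions, against 13.1% of all tested genes in each direction, and VGF was 6.65-fold lower (log2 difference -2.73, SE 0.0539, adjusted p = 4.22e-31). All 6 conditioned libraries were compared with the 2 control libraries in an exact two-sided permutation test of the log2 CPM over 28 labelings. With the smaller tail doubled, this exact permutation test gave p = 0.0714 for VGF and for SCG3. That is the smallest p the doubled form of the test can give here. The same exact permutation test gave p = 0.357 for CHGB, 0.429 for PCSK1, 0.5 for SCG2, 0.714 for PCSK1N and 0.929 for CPE, members that were not on 1 side of the controls in all 6 libraries. This split pools 3 different media, so its p-values do not describe any single medium.

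Per kilobase of exon, the order of the members in control medium was SCG2 at 376 ± 9.61 CPM per kb (SD, n = 2), VGF at 306 ± 4.13, CHGB at 173 ± 10.1, CPE at 107 ± 0.327, SCG3 at 97 ± 2.17, PCSK1N at 56.4 ± 1.94 and PCSK1 at 2.3 ± 0.362. All of these steps were larger than the SDs of the genes on either side. The messages of the cargo genes therefore stood far above that of the convertase. Length is that of all annotated exons of a gene, whichever transcript the cells use, and the SDs do not cover this. VGF was first in E8-cSGcm at 602 ± 26.7 CPM per kb (SD, n = 2) and in E8-cDRGcm at 2225 ± 158. SCG2 stayed first in E15.5-mSGcm at 468 ± 5.38 CPM per kb (SD, n = 2). In E8-cSGcm SCG3 and CPE, at 110 ± 5.09 and 107 ± 3.49 CPM per kb (SD, n = 2), did not differ beyond their spread. In E8-cDRGcm the same held for CPE and CHGB at 100 ± 1.33 and 97.5 ± 3.41.

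The 10 genes together held 0.338% and 0.327% of all counts in the control libraries, 0.426% and 0.428% in E8-cSGcm, 0.775% and 0.816% in E8-cDRGcm and 0.361% and 0.361% in E15.5-mSGcm. VGF made up 24.3% and 25.5% of these counts in control medium and 72.3% and 74.9% in E8-cDRGcm. Without VGF the share was 0.255% and 0.244% in control medium and 0.214% and 0.205% in E8-cDRGcm, so the other members together did not rise in the medium with the most VGF. CHGA and SCG5 could not be read and add no counts to any of these shares.

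The peptides that this machinery handles gave a list of 65 other prohormone genes, of which 21 were at 0 in every library and 23 were tested. Of the 23, 5 were upregulated and 0 downregulated in E8-cSGcm, 8 and 1 in E8-cDRGcm, and 8 and 5 in E15.5-mSGcm, with a median log2 fold change of 0.19, 0.25 and 0.36. Over all tested genes, 4.73% rose and 3.86% fell in E8-cSGcm, 9.81% and 10.9% in E8-cDRGcm, and 6.65% and 7.27% in E15.5-mSGcm, with medians of 0.01, 0.01 and -0.02. This list and those that follow were drawn up with earlier results of these data known, and nothing is called particular to a list from its counts. Downward in E8-cSGcm, 0 of them had an unadjusted p under 0.05 in edgeR and DESeq2 called 0. NPY, the precursor of the sympathetic cotransmitter neuropeptide Y, had 118 and 168 counts in control medium, 315 and 351 in E8-cSGcm, 676 and 659 in E8-cDRGcm and 282 and 302 in E15.5-mSGcm. It was upregulated in every medium, 2.46-fold, 4.89-fold and 3.49-fold (edgeR adjusted p = 7.89e-12, 1.08e-20 and 7.33e-16). VIP, the precursor of vasoactive intestinal peptide, rose 1.84-fold in E8-cSGcm, 3.5-fold in E8-cDRGcm and 2.83-fold in E15.5-mSGcm (edgeR adjusted p = 2.63e-07, 1.35e-16 and 7.39e-13). PENK, the proenkephalin precursor of the enkephalins, had 42 and 47 counts in control medium and 195 and 323 in E15.5-mSGcm, a 9.86-fold rise (log2 fold change 3.30, SE 0.186, edgeR adjusted p = 5.02e-16). STC1, which encodes the secreted hormone stanniocalcin, fell 4.62-fold in E8-cDRGcm (edgeR adjusted p = 1.06e-10). The growth factor gene IGF2 and the neuropeptide gene NPW fell 1.58-fold and 1.59-fold in E15.5-mSGcm (edgeR adjusted p = 1.03e-12 and 7.79e-07).

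Of 22 other convertases and peptide-trimming enzymes, 16 were tested, and 1 rose and 1 fell in E8-cSGcm, 2 and 2 in E8-cDRGcm, and 1 and 3 in E15.5-mSGcm, where 4.73% and 3.86%, 9.81% and 10.9%, and 6.65% and 7.27% of all tested genes did. Most of these counts were near that background, while the 3 of 16 that fell in E15.5-mSGcm were above it. With so few genes, no share is read as a result about the list. FURIN, the convertase of the constitutive secretory pathway, rose 1.99-fold in E8-cDRGcm (edgeR adjusted p = 1.02e-12). PCSK6, a convertase of growth factor precursors, fell 1.75-fold in E8-cSGcm and 2.46-fold in E8-cDRGcm (edgeR adjusted p = 1.07e-09 and 4.97e-15). QPCTL, a glutaminyl cyclase of the Golgi, rose 1.64-fold in E8-cSGcm (edgeR adjusted p = 0.0026). The carboxypeptidase-like gene CPXM1 fell 2.18-fold in E8-cDRGcm and 1.91-fold in E15.5-mSGcm, and its relative CPXM2, at 11 and 7 counts in control medium, had 34 and 35 in E8-cDRGcm, a 3.95-fold rise (edgeR adjusted p = 7.69e-12, 8.98e-09 and 5.91e-05). In E15.5-mSGcm AEBP1, another carboxypeptidase-like gene, fell 1.63-fold and SERPINI1, which encodes the protease inhibitor neuroserpin, rose 2.46-fold (edgeR adjusted p = 7.56e-12 and 2.12e-13).

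The granule itself was covered by 30 genes of granule biogenesis and membrane, 27 of them tested, of which 2 rose and 2 fell in E8-cSGcm, 4 and 4 in E8-cDRGcm, and 1 and 3 in E15.5-mSGcm. Over all tested genes 4.73% and 3.86%, 9.81% and 10.9%, and 6.65% and 7.27% were called in these directions, so the counts of the list were near the background. CYB561, the granule membrane cytochrome that carries electrons for amine and peptide synthesis, had 1835 and 2097 counts in control medium, 467 and 572 in E8-cSGcm, 198 and 257 in E8-cDRGcm and 396 and 416 in E15.5-mSGcm. It fell in every medium, 3.58-fold, 8.26-fold and 2.83-fold (edgeR adjusted p = 1.34e-21, 3.78e-27 and 8.36e-19). The vesicular monoamine transporter gene SLC18A1 fell 2.06-fold in E8-cSGcm, 3.82-fold in E8-cDRGcm and 1.8-fold in E15.5-mSGcm (edgeR adjusted p = 1.27e-09, 6.27e-16 and 3.47e-07). Its relative SLC18A2 fell from 143 and 141 counts to 6 and 9 in E15.5-mSGcm, an 11-fold difference (log2 fold change -3.46, SE 0.295, edgeR adjusted p = 4.42e-12). SYT4, a synaptotagmin of dense-core granules, rose 1.86-fold in E8-cDRGcm (edgeR adjusted p = 8.14e-15). The vesicle protein gene SV2B was called up in all 3 media from 14 and 5 counts in control medium, to 27 and 25, 26 and 25, and 48 and 49 (edgeR adjusted p = 0.00341, 0.00252 and 3.47e-09).

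Of 40 genes of regulated exocytosis, 34 were tested, and 5 rose and 1 fell in E8-cSGcm, 7 and 3 in E8-cDRGcm, and 2 and 2 in E15.5-mSGcm, against 4.73% and 3.86%, 9.81% and 10.9%, and 6.65% and 7.27% of all tested genes. In E15.5-mSGcm the counts were at the background. RAB27A and RAB27B encode small GTPases that tether granules to the plasma membrane, and EXPH5 encodes an effector of RAB27. EXPH5 rose 2.51-fold, 5.35-fold and 1.64-fold in E8-cSGcm, E8-cDRGcm and E15.5-mSGcm (edgeR adjusted p = 3.3e-06, 5.31e-14 and 0.0221). RAB27A rose 2.08-fold in E8-cDRGcm while RAB27B fell 2.11-fold there (edgeR adjusted p = 3.35e-12 and 5.05e-16), and RAB27A rose 1.52-fold in E8-cSGcm and 1.67-fold in E15.5-mSGcm (edgeR adjusted p = 6.31e-06 and 3.44e-07). The calcium sensor gene SYT5 rose 1.67-fold in E8-cSGcm and 1.92-fold in E8-cDRGcm (edgeR adjusted p = 5.62e-09 and 3.39e-12), and the SNARE regulator gene STXBP5 fell 1.5-fold in E8-cSGcm (edgeR adjusted p = 4.32e-10). CPLX1 and DOC2A, which encode proteins of calcium-triggered release, fell 2.24-fold and 1.96-fold in E15.5-mSGcm (edgeR adjusted p = 7.07e-11 and 1.07e-05). UNC13D, with 10 and 17 counts in control medium and 5 and 5 in E8-cDRGcm, was called down there (edgeR adjusted p = 0.0424).

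The vacuolar proton pump acidifies the granule, which the convertases need. Of its 24 genes, 17 were tested and none was called in any of the 3 media with edgeR at the fold change threshold, with median log2 fold changes of -0.02, -0.15 and 0.26, and DESeq2 called 0 as well. At an unadjusted p under 0.05 in edgeR, 4 of the 17 were higher and 3 lower in E8-cSGcm, 3 and 8 in E8-cDRGcm, and 12 and 0 in E15.5-mSGcm. The same was true of 20.9% and 19.5%, 27.4% and 27.1%, and 21.6% and 23.8% of all tested genes.

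Of 16 factors known to act on granin genes, 13 were tested, and 1 rose and 1 fell in E8-cSGcm, 2 and 4 in E8-cDRGcm, and 2 and 2 in E15.5-mSGcm. The shares over all tested genes were 4.73% and 3.86%, 9.81% and 10.9%, and 6.65% and 7.27%, so that 1 of 13 in a direction is near the background. CREM, a factor of the cAMP response element, had 118 and 109 counts in control medium, 164 and 182 in E8-cSGcm, 291 and 254 in E8-cDRGcm and 149 and 127 in E15.5-mSGcm. It rose 1.61-fold, 2.51-fold and 2.08-fold (edgeR adjusted p = 0.000384, 2.12e-10 and 7.52e-07). REST, the repressor that silences granin genes outside neuroendocrine cells, rose 1.72-fold in E8-cDRGcm (edgeR adjusted p = 1.86e-10). MYT1L, a neuronal repressor of other fates, rose 1.52-fold in E15.5-mSGcm and fell 1.55-fold in E8-cDRGcm (edgeR adjusted p = 2.9e-07 and 1.69e-07).

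For the 4 members called against control medium, the genes with the most similar profile over the 8 libraries were sought among 10433 tested genes, by the root-mean-square difference of centred log2 CPM. For CHGB these were ALG10B, CUTALP and FAM210B at 0.063, 0.0735 and 0.0775, where CHGB itself varied by 0.352 around its mean. For CPE they were TCEAL7 at 0.0516, ZMAT3 at 0.0536 and MSANTD3 at 0.0581, and for PCSK1 they were XYLT2 at 0.116, PIK3CD at 0.117 and CEP170B at 0.126. VGF had no neighbor as close: TRIB3, ERN1 and SAT1 stood at 0.34, 0.375 and 0.394, where VGF varied by 1.14. The log2 fold change of TRIB3, which encodes a pseudokinase of the cellular stress response, was 1.11 in E8-cSGcm, 2.49 in E8-cDRGcm and -0.55 in E15.5-mSGcm.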

How the data were processed

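Counts of 8 RNA-seq libraries were analysed, 2 per medium. The authors mapped single reads of stranded total RNA libraries with TopHat, counted them per Ensembl gene with HTSeq-count, and deposited raw counts without normalization. The build is hg19 in the study's methods and hg38 in the submitters' processing notes, and the strand option is not given in the sources used here. Symbols and exon lengths came from GENCODE 44 on GRCh37 (58611 identifiers matched), positions and promoters from RefSeq on GRCh38.p14.

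Library sizes were scaled with TMM, and genes kept by filterByExpr were tested with edgeR 4.0.16 (robust quasi-likelihood fit of all 8 libraries, Benjamini-Hochberg adjustment over 16680 genes) in R 4.3.3. The alternatives were DESeq2 1.42.0, which the study used, RLE size factors, other filters, only the libraries compared, the p threshold alone, a replicate block and each library left out. Within-library ratios used a pseudocount of 0.5. Of each list, up to 2 called genes with the highest and 2 with the lowest fold change per medium are named, given more than 3 counts in every library compared, and the 3 genes nearest to each called member. Some genes that this rule names are not reported here. The members and lists were drawn up with earlier results of these data known, which the rule for the members did not use. The edgeR fit was tested on simulated counts for E8-cSGcm against control medium, with true log2 fold changes of 1 and 1.5 in either direction. It called 91 of 98 and 97 of 102 changed genes, and 4 unchanged genes, among 16300 tested. The other steps and smaller changes were not simulated. Figures were drawn with matplotlib 3.10.9.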

Additional observations from a re-analysis of the deposited data

Results flagged for a closer look

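PCSK1 was flagged because its change against control medium went in opposite directions in different media and the difference itself passed the test. It was higher in every library of the chick media than in either control library, and lower in both E15.5-mSGcm libraries. The log2 difference between E15.5-mSGcm and E8-cSGcm was -1.58 (edgeR adjusted p = 9.53e-12), and between E15.5-mSGcm and E8-cDRGcm it was -1.99 (edgeR adjusted p = 3.08e-15). With each library left out in turn these differences ran from -1.66 to -1.52 and from -2.08 to -1.94. The call of PCSK1 in E15.5-mSGcm against control medium was lost without control replicate 2, at -0.57.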

How the results depend on the processing

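Of 588 fold changes of members over 14 alternative settings, 579 kept their direction and their side of the threshold, 1 fell below the threshold and 8 changed sign. The one lost was PCSK1 in E15.5-mSGcm against control medium, -0.57 without control replicate 2 (edgeR adjusted p = 0.0177). The sign changes were all of differences not called. With a filter at 1 count, CPE in E8-cSGcm against control medium was 0.001 and SCG3 in E15.5-mSGcm against E8-cDRGcm -0.02. With 1 library left out, CHGB in E8-cSGcm ran from -0.03 to 0.09 (-0.03 without control replicate 2 and -0.01 without E8-cSGcm replicate 2), CPE in E8-cSGcm from -0.04 to 0.03, SCG2 in E8-cDRGcm from -0.06 to 0.01 (0.001 without control replicate 1), and SCG3 in E15.5-mSGcm against E8-cSGcm from -0.08 to 0.02. Why was not tested. Settings that left out a library of neither group compared barely moved a fold change, and they are part of the 588.

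The count of upregulated members in E15.5-mSGcm rose from 1 to 2 against each of the other groups with the filter at 1 count, where PCSK2 entered the test. With the p threshold alone, which drops the fold change, it was 4 up and 3 down against control medium, 2 up and 4 down against E8-cSGcm and 3 up against E8-cDRGcm, and 2 up and 2 down for E8-cDRGcm against E8-cSGcm. With each library left out, the downregulated count in E15.5-mSGcm ran from 0 to 1. The pseudocounts 0 and 1 gave 0.46 and 0.44 for the PCSK1N to PCSK1 difference in E15.5-mSGcm, and the share of counts there was 0.361% with tested genes as denominator. With a replicate block, 2 members were upregulated in E8-cSGcm and 2 in E8-cDRGcm, and no call changed. Same-numbered libraries did not deviate together (r from -0.0437 to 0.042 across genes). This cannot show whether they were made in parallel. The SCG5 to PCSK2 ratio could not be computed. Depth limits PCSK2 and, in E15.5-mSGcm, PCSK1.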
